A study of Homo sapiens with 18 samples.

Results

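The genes described here fold proteins in the endoplasmic reticulum, sense the load of unfolded protein there, or send misfolded protein out for degradation. They were taken by name from a list of 37 symbols, of which 36 were found among the 27166 genes of the deposited table. The remaining name, VIMP, is an older symbol of SELENOS, which is in the list under its current name. The genes and their roles were chosen with earlier results of these data known, so the list was not blind to them. The 36 genes fall into 7 roles. There are 4 sensors and transcription factors, 7 chaperones of the HSP70 and HSP90 class with their helpers, and 3 lectin chaperones and calcium binding proteins. A further 6 are disulfide isomerases and oxidases, and 4 trim or read glycans (readers of glycans below). Of the rest, 8 are proteins of the membrane machinery of degradation and 4 of the extraction complex around VCP.

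RNA sequencing was done on 18 libraries from 3 human cancer cell lines: NCIH838, a lung adenocarcinoma line, DLD1, a colon adenocarcinoma line, and HUH7, a hepatocellular carcinoma line from liver. In each line, cells transduced with lentivirus carrying lentiCRISPR v2 with 1 guide against KDSR (KDSR KO) were set against cells that received the same vector with a non-targeting guide (CTRL), with 3 libraries per group, described as biological triplicates. All cells thus carried Cas9, were under puromycin for 5 days and grew in the same medium with serum. RNA came from day 10 of infection in NCIH838 and day 8 in DLD1 and HUH7, so a difference between NCIH838 and the other lines cannot be told apart from the difference in days. The cells were a transduced and selected population with a single guide, and no second guide is labelled. KDSR encodes an enzyme in the membrane of the endoplasmic reticulum that reduces 3-ketodihydrosphingosine, an early step in the synthesis of sphingolipids. The question the design poses is how the mRNA profile of each line differs with the knockout.

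Secretory and membrane proteins enter the endoplasmic reticulum unfolded. There chaperones such as BiP hold them, lectin chaperones bind their glycans, and disulfide isomerases pair their cysteines. When unfolded protein builds up, the sensors IRE1 (the product of ERN1), ATF6 and PERK start the unfolded protein response, in which cleaved ATF6 and the spliced form of XBP1 act as transcription factors on genes of folding and degradation. Proteins that fail to fold are recognised by their trimmed glycans, passed through a membrane complex around the ubiquitin ligase SYVN1 and its partner SEL1L, pulled into the cytosol by the ATPase VCP, and degraded by the proteasome.

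Promoters of genes of this response are known to carry short shared elements, so the sequence before the start of each gene was searched first. RefSeq promoter windows (GRCh38.p14), of which the 250 bases before the start were used, were at hand for 40 starts of 32 of the 36 genes. The window of HSPA5, the gene of BiP, is shown whole because among the 35 genes tested this one had the largest log2 change of TPM + 1 in NCIH838. It lies at chr9:125241344-125241593 on the minus strand, with 0 bases in an annotated exon, and its single full ER stress response element is in capitals.
HSPA5: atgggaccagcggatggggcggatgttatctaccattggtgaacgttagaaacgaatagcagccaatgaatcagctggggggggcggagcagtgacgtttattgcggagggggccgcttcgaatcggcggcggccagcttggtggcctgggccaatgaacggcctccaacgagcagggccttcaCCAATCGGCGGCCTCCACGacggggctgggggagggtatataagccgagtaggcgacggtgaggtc
The element lay 66 to 48 bases before the start. The box CCAAT, read on both strands, occurred 4 times in the window, once within this element.

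The full ER stress response element, which is CCAAT, then 9 bases of any kind, then CCACG, was present on either strand in 8 of the 32 genes with a window (25%), against 25 of 27305 genes with a window in the whole RefSeq table (0.0916%). The sites are set out with 5 bases on each side, read on the strand that spells the element, with its fixed letters in capitals.
HSPA5, chr9:125241386-125241414, minus: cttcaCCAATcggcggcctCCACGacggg
HSP90B1, chr12:103930211-103930239, plus: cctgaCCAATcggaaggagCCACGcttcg
HSP90B1, chr12:103930316-103930344, minus: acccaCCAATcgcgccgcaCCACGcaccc
CALR, chr19:12938379-12938407, minus: accgaCCAATgatggtcgaCCACGcgtgg
CANX, chr5:179698773-179698801, plus: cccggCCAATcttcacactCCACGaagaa
XBP1, chr22:28800598-28800626, minus: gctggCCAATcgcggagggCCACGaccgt
CRELD2, chr22:49918549-49918577, minus: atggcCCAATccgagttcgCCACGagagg
ERO1B, chr1:236282178-236282206, plus: ggcggCCAATgaggcgggaCCACGcgggc
PDIA6, chr2:10812848-10812876, minus: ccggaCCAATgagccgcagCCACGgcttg
The fixed letters are the same in all 9 sites because the search required them, while the 9 bases between the boxes differ. A second form, ER stress response element II (ATTGG, 1 base of any kind, then CCACG, again on either strand), occurred in 3 of the 32 genes (9.38%), against 18 of 27305 genes (0.0659%).
HERPUD1, chr16:56932020-56932040, plus: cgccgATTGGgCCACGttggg
HYOU1, chr11:119057269-119057289, plus: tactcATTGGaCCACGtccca
HYOU1, chr11:119057375-119057395, plus: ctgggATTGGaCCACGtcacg
SDF2L1, chr22:21642109-21642129, minus: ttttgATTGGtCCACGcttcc
The unfolded protein response element TGACGTGG was found in HYOU1 and VCP, 2 of 32 genes (6.25%), against 0.78% of all genes. In HYOU1 it overlapped one of the ER stress response element II sites above, on the opposite strand. The CCAAT box alone stood in 27 of the 32 genes (84.4%, against 37% of all genes) and CCACG alone in 24 (75%, against 37.5%). Both short boxes are parts of the longer elements. Such a match is a description of the letters and does not show that a factor binds there, and no match in 250 bases says nothing of sequence elsewhere.

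Depth ranged from 17039634 to 20385767 reads per library, as recovered from the deposited values. Levels are in TPM, a relative abundance corrected for gene length and scaled to the same total in each library. Because these are bulk samples, fewer cells with a transcript and less of it per cell cannot be told apart. Of 6 lung marker genes, 5 were in the table, and all were under 1 TPM in both NCIH838 groups, for example SFTPB at 0.0295 and 0.0299 TPM in KDSR KO and CTRL. DLD1 had the colon transcription factor CDX2 at 175 and 246 TPM in KDSR KO and CTRL, with CDX1, a related factor, near or below 1 TPM in both. Of the other colon markers, CDH17 was at 201 and 224 TPM, MUC13 at 60.1 and 62.9 TPM and LGALS4 at 3.57 and 3.47 TPM in DLD1 KDSR KO and CTRL. VIL1 was at 11.3 and 16.1 TPM there, below its 109 and 111 TPM in HUH7 KDSR KO and CTRL. HUH7 had ALB, the gene of serum albumin, at 6099 and 5963 TPM in KDSR KO and CTRL. Libraries of a group were never identical. Replicate 1 of HUH7 CTRL stood apart from the other 2 (chi-square per degree of freedom over genes 19.4 and 17.6, against 3.5 between the others), as did replicate 2 of NCIH838 KDSR KO (14.6 and 9, against 5.95) and replicate 3 of DLD1 CTRL (9.4 and 7.25, against 3.27). Among the 35 genes tested here, HUH7 CTRL replicate 1 was the lowest of its group for 23, NCIH838 CTRL replicate 1 for 27 and DLD1 CTRL replicate 3 for 17. Mitochondrially encoded genes took 11.9% to 15.2% of TPM in NCIH838 KDSR KO and 11.9% to 15.2% in NCIH838 CTRL, 8.35% to 9.59% in DLD1 KDSR KO and 6.32% to 8.96% in DLD1 CTRL, and 8.98% to 10.6% in HUH7 KDSR KO and 7.07% to 12.5% in HUH7 CTRL.

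KDSR mRNA itself was examined first. In NCIH838 it was at 13.8, 12.5 and 12.3 TPM in KDSR KO and at 11.9, 13.7 and 14.7 TPM in CTRL, and the groups overlapped (exact permutation test, two-sided p = 0.7). In DLD1 it was at 19.5, 19.4 and 18.7 TPM in KDSR KO and at 29.7, 32.2 and 27.2 TPM in CTRL. In HUH7 it was at 3.67, 4.01 and 3.21 TPM in KDSR KO and at 5.08, 6.54 and 5.74 TPM in CTRL. In both DLD1 and HUH7 every KDSR KO library lay below every CTRL library, and the exact permutation test gave p = 0.1, the smallest p that 3 against 3 allows. The limma test across all genes called the fall in DLD1 (adjusted p = 0.000775) and not in HUH7 (adjusted p = 0.114) or NCIH838 (adjusted p = 0.681). Small insertions and deletions made by Cas9 can end a protein without removing its mRNA, so in NCIH838 the mRNA level does not check the label.

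Genes of folding and degradation were higher in KDSR KO than in CTRL in NCIH838 and DLD1, and none was called in HUH7. In NCIH838, 28 of the 35 genes tested rose and 1 fell, at an adjusted p under 0.05 in limma, against 15.7% of all 16347 genes tested that rose and 26.8% that fell. In DLD1, 19 of 35 rose and 0 fell, against 5.16% and 12.1% of 15478 genes. In HUH7, 0 of 35 rose or fell, against 0% of 16104 genes. Of all genes called, 36.9% were higher in NCIH838 and 29.9% in DLD1, a split that moved to 47.2% and 55.8% under quantile normalization, and to 47.6% in DLD1 under median ratio scaling, while the 35 genes kept 27 to 31 higher in NCIH838 and 17 to 23 higher in DLD1 over the 10 settings other than leaving out a library. The median log2 change of the 35 genes was 0.36 in NCIH838, 0.23 in DLD1 and 0.03 in HUH7, beside -0.09, -0.07 and 0.02 over all genes tested. All 3 KDSR KO libraries lay above all 3 CTRL libraries for 30 of 35 genes in NCIH838 (18.9% of all genes tested), 25 of 35 in DLD1 (12.1%) and 1 of 35 in HUH7 (6.81%). All 3 lay below CTRL for 6 of 35 genes in HUH7 (10.1%), namely HYOU1, CALR, PDIA4, P4HB, SYVN1 and NPLOC4.

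A gene was tested in a line where its mean reached 1 TPM, which 35 genes did in every line. Their lowest group mean was 2.05 TPM. DERL3, a derlin, was the 36th. It was at 0.885, 0.67 and 0.622 TPM in NCIH838 KDSR KO and 0.0475, 0.194 and 0.243 TPM in NCIH838 CTRL. It was at 0.233, 0.477 and 0.152 TPM in DLD1 KDSR KO and 0.0512, 0.103 and 0.0614 TPM in DLD1 CTRL, and at 0.311, 0.311 and 0.303 TPM in HUH7 KDSR KO and 0.407, 0.262 and 0.476 TPM in HUH7 CTRL. These values rest on 1 to 18 reads per library, and 77.0% of its exon bases overlap exons of SMARCB1, so no comparison was made.

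**Figure D1:**
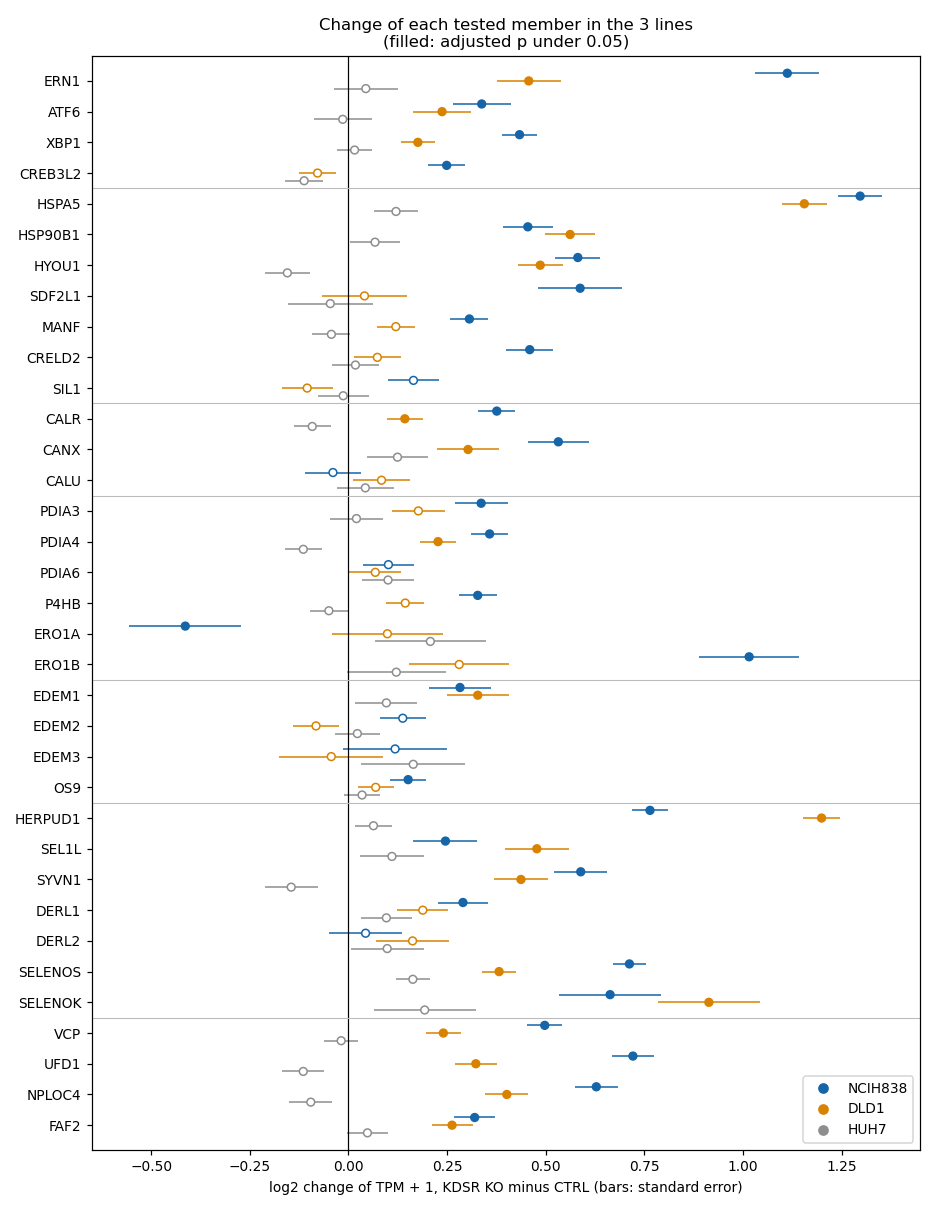
Log2 change of TPM + 1, KDSR KO minus CTRL, for each of the 35 genes tested (rows, grouped by role with lines between roles) in NCIH838, DLD1 and HUH7, with the standard error as a bar; filled points had an adjusted p under 0.05. The NCIH838 and DLD1 points lie mostly right of 0, with HSPA5, HERPUD1, ERN1 and ERO1B farthest, ERO1A in NCIH838 is the 1 filled point left of 0, and no HUH7 point is filled.

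Of the genes called, 19 rose in both NCIH838 and DLD1: the sensors and factors ERN1, ATF6 and XBP1, the chaperones HSPA5, HSP90B1, HYOU1, CALR and CANX, the isomerase PDIA4, EDEM1, the membrane proteins HERPUD1, SEL1L, SYVN1, SELENOS and SELENOK, and the extraction proteins VCP, UFD1, NPLOC4 and FAF2. A further 9 rose in NCIH838 and were not called in DLD1, namely CREB3L2, CRELD2, DERL1, ERO1B, MANF, OS9, P4HB, PDIA3 and SDF2L1. No gene rose in DLD1 without being called in NCIH838, and 6 were called in no line (CALU, DERL2, EDEM2, EDEM3, PDIA6 and SIL1).

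Among sensors and transcription factors, 4 of 4 rose in NCIH838 and 3 of 4 in DLD1. Counts by role, here and below, are of few genes. They stand beside 15.7% of all genes tested that rose in NCIH838 and 5.16% in DLD1, and 26.8% that fell in NCIH838. ERN1, which encodes the sensor IRE1 (chr17:64039142-64130819, minus strand), was at 13.2, 14.2 and 14.7 TPM in NCIH838 KDSR KO and 5.55, 6.38 and 5.92 TPM in NCIH838 CTRL. That is a 2.36-fold rise (log2 change 1.11, SE 0.0806, limma adjusted p = 6.06e-08). DLD1 libraries had 10.3, 9.38 and 8.55 TPM in KDSR KO and 6.69, 6.31 and 6.71 TPM in CTRL, a 1.43-fold rise (adjusted p = 0.00177). In HUH7 the groups overlapped, at 6.75, 7.65 and 6.44 TPM in KDSR KO and 6.27, 6.52 and 7.32 TPM in CTRL. The CTRL level of ERN1 was between 5.55 and 7.32 TPM in all 9 CTRL libraries, the lowest of the 35 genes in HUH7 and DLD1, and differences between lines at that level were not called.

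XBP1, the transcription factor whose mRNA IRE1 splices, was at 307, 321 and 291 TPM in NCIH838 KDSR KO and 218, 234 and 228 TPM in NCIH838 CTRL (1.35-fold, adjusted p = 1.97e-06). In DLD1 the level was 235, 237 and 230 TPM in KDSR KO and 204, 212 and 204 TPM in CTRL (1.13-fold, adjusted p = 0.013). HUH7 libraries had 679, 688 and 702 TPM in KDSR KO and 670, 719 and 660 TPM in CTRL. The HUH7 level was high in both groups, above every library of the other lines. Gene-level values do not separate the spliced from the unspliced XBP1 mRNA, so splicing was not analysed here.

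ATF6, the sensor that is cleaved to a transcription factor, was at 65.3, 55.9 and 61.8 TPM in NCIH838 KDSR KO and 46.1, 48.5 and 49.4 TPM in NCIH838 CTRL (1.27-fold, adjusted p = 0.00179). The DLD1 values were 51.0, 48.6 and 51.4 TPM in KDSR KO and 42.5, 45.2 and 40.1 TPM in CTRL (1.18-fold, adjusted p = 0.0381). The groups did not overlap in either line, but the DLD1 call was lost without any 1 of 5 DLD1 libraries (adjusted p 0.0585 to 0.143). In HUH7 the level was 29.3, 31 and 33.8 TPM in KDSR KO and 28.9, 34.5 and 31.7 TPM in CTRL. CREB3L2, a membrane-anchored factor related to ATF6, was at 73.1, 73.0 and 75.7 TPM in NCIH838 KDSR KO and 61.2, 63.5 and 61.5 TPM in NCIH838 CTRL (1.19-fold, adjusted p = 0.00064). It was at 54.6, 54.0 and 54.5 TPM in DLD1 KDSR KO and 53.9, 60.4 and 58.3 TPM in DLD1 CTRL, and at 84.3, 89.4 and 81.6 TPM in HUH7 KDSR KO and 88.1, 95.2 and 92.8 TPM in HUH7 CTRL. In those lines the groups overlapped, with KDSR KO means below the CTRL means.

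**Figure D2:**
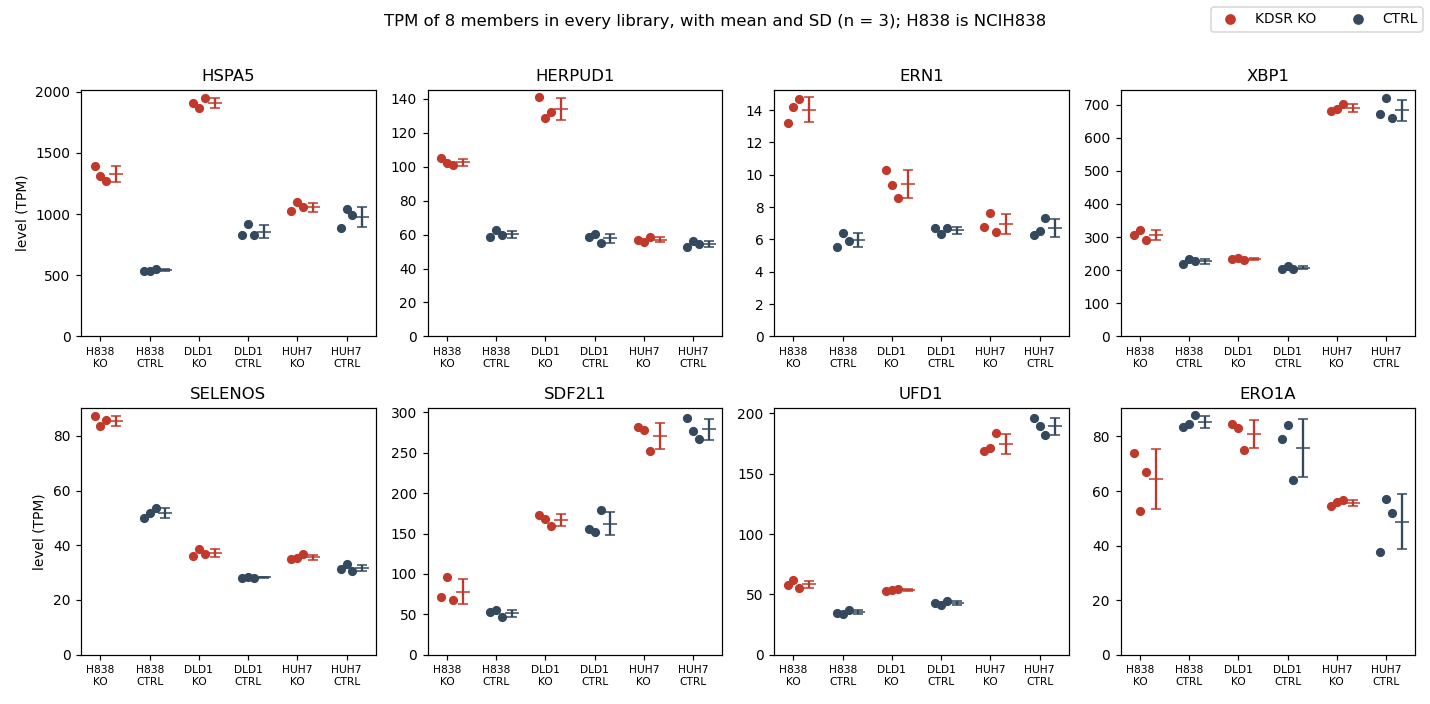
TPM of 8 genes in every library of the 6 groups (points), with the mean and SD of 3 libraries to the right of the points; H838 stands for NCIH838. HSPA5, HERPUD1, ERN1, XBP1, SELENOS and UFD1 have KDSR KO above CTRL without overlap in NCIH838 and DLD1, SDF2L1 in NCIH838 alone, and ERO1A has KDSR KO below CTRL in NCIH838.

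Of the HSP70 and HSP90 class chaperones and helpers, 6 of 7 rose in NCIH838 and 3 of 7 in DLD1. HSPA5, the gene of BiP whose promoter is shown above, had the largest log2 change of TPM + 1 of the 35 in NCIH838, although ERO1B, a gene of low level, had the larger ratio of TPM (2.50-fold). It was at 1395, 1315 and 1271 TPM in NCIH838 KDSR KO and 534, 535 and 549 TPM in NCIH838 CTRL, a 2.46-fold rise (log2 change 1.30, SE 0.0566, adjusted p = 3.83e-10). DLD1 cells had 1909, 1870 and 1946 TPM in KDSR KO and 829, 915 and 828 TPM in CTRL, a 2.23-fold rise (log2 change 1.15, adjusted p = 3.9e-09). The HUH7 values were 1021, 1095 and 1055 TPM in KDSR KO and 886, 1045 and 992 TPM in CTRL, and the groups overlapped (log2 change 0.12, adjusted p = 0.447). HUH7 thus had the highest CTRL level of HSPA5, while NCIH838 KDSR KO and DLD1 KDSR KO exceeded every HUH7 library.

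HSP90B1, the HSP90 of the endoplasmic reticulum, was at 922, 821 and 862 TPM in NCIH838 KDSR KO and 626, 628 and 644 TPM in NCIH838 CTRL (1.37-fold, adjusted p = 4.64e-05). In DLD1 it was at 1532, 1547 and 1546 TPM in KDSR KO and 1040, 1103 and 993 TPM in CTRL (1.47-fold, adjusted p = 4.55e-05). The 3 DLD1 KDSR KO libraries lay close together and far above CTRL. In HUH7 it was at 1264, 1373 and 1288 TPM in KDSR KO and 1109, 1313 and 1334 TPM in CTRL. HYOU1, a large HSP70 relative that helps BiP release nucleotide, was at 202, 229 and 209 TPM in NCIH838 KDSR KO and 136, 149 and 142 TPM in NCIH838 CTRL (1.5-fold, adjusted p = 1.45e-06). DLD1 libraries had 221, 211 and 217 TPM in KDSR KO and 142, 155 and 166 TPM in CTRL (1.40-fold, adjusted p = 5.74e-05). In HUH7 the order turned: 197, 203 and 193 TPM in KDSR KO and 222, 221 and 217 TPM in CTRL, without overlap, a log2 change of -0.15 that was not called (adjusted p = 0.412).

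The 3 remaining genes of this role that were called rose in NCIH838, where the mean CTRL level of every gene of this role was lowest. SDF2L1, which works with BiP and its DNAJ partner, was at 71.1, 95.7 and 67.6 TPM in NCIH838 KDSR KO and 52.6, 55.0 and 46.1 TPM in NCIH838 CTRL (1.53-fold, adjusted p = 0.000467). It was at 173, 168 and 159 TPM in DLD1 KDSR KO and 156, 152 and 179 TPM in DLD1 CTRL, and at 282, 278 and 252 TPM in HUH7 KDSR KO and 293, 277 and 267 TPM in HUH7 CTRL. In DLD1 and HUH7 the groups overlapped. CRELD2, a stress-inducible protein of the endoplasmic reticulum, was at 10.6, 11.9 and 10.2 TPM in NCIH838 KDSR KO and 7.65, 7.53 and 7.78 TPM in NCIH838 CTRL (1.43-fold, adjusted p = 2.35e-05). It was at 46.6, 44.7 and 45.7 TPM in DLD1 KDSR KO and 39.6, 43.7 and 47.0 TPM in DLD1 CTRL, and at 47.4, 48.3 and 46.2 TPM in HUH7 KDSR KO and 47.6, 45.9 and 46.6 TPM in HUH7 CTRL. Even after the rise, CRELD2 in NCIH838 KDSR KO stayed below every library of the other lines. MANF, a soluble protein that binds BiP, was at 161, 157 and 149 TPM in NCIH838 KDSR KO and 116, 135 and 127 TPM in NCIH838 CTRL (1.24-fold, adjusted p = 0.000131). It was at 278, 276 and 276 TPM in DLD1 KDSR KO and 249, 264 and 251 TPM in DLD1 CTRL (adjusted p = 0.101), and at 170, 170 and 178 TPM in HUH7 KDSR KO and 180, 178 and 176 TPM in HUH7 CTRL. SIL1, another exchange factor of BiP, was called in no line, at log2 changes of 0.16 in NCIH838 (adjusted p = 0.0527), -0.10 in DLD1 and -0.01 in HUH7.

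Of the lectin chaperones and calcium binding proteins, CALR and CANX rose in NCIH838 and DLD1, and CALU in neither. CALR, the soluble lectin chaperone calreticulin and the most abundant of the 36 genes in the CTRL libraries of every line, was at 1713, 1889 and 1811 TPM in NCIH838 KDSR KO and 1345, 1413 and 1411 TPM in NCIH838 CTRL (1.30-fold, adjusted p = 1.46e-05). In DLD1 the level was 1850, 1777 and 1761 TPM in KDSR KO and 1534, 1624 and 1726 TPM in CTRL (1.10-fold, adjusted p = 0.0469). That call was lost without any 1 of 5 DLD1 libraries (adjusted p 0.0729 to 0.168) and under 7 of 10 other settings. HUH7 libraries had 2397, 2521 and 2471 TPM in KDSR KO and 2715, 2563 and 2596 TPM in CTRL, below CTRL without overlap and not called (adjusted p = 0.465). CANX, the membrane lectin chaperone calnexin, was at 759, 632 and 675 TPM in NCIH838 KDSR KO and 478, 459 and 487 TPM in NCIH838 CTRL (1.45-fold, adjusted p = 7.08e-05). The DLD1 values were 944, 953 and 957 TPM in KDSR KO and 761, 806 and 747 TPM in CTRL (1.23-fold, adjusted p = 0.0158, or 0.062 without DLD1 CTRL replicate 3). In HUH7 the level was 737, 798 and 772 TPM in KDSR KO and 607, 769 and 751 TPM in CTRL, where replicate 1 of CTRL is the low value. CALU, a calcium binding protein of the secretory pathway, had log2 changes of -0.04, 0.08 and 0.04 in NCIH838, DLD1 and HUH7.

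Among disulfide isomerases and oxidases, 4 of 6 rose and 1 fell in NCIH838, and 1 of 6 rose in DLD1. PDIA4, an isomerase with several thioredoxin-like domains, was at 361, 394 and 351 TPM in NCIH838 KDSR KO and 277, 297 and 288 TPM in NCIH838 CTRL (1.28-fold, adjusted p = 2.31e-05). DLD1 cells had 613, 610 and 598 TPM in KDSR KO and 495, 529 and 532 TPM in CTRL (1.17-fold, adjusted p = 0.00442), and HUH7 libraries had 648, 674 and 676 TPM in KDSR KO and 703, 751 and 709 TPM in CTRL. It was the isomerase called in both lines. P4HB, protein disulfide isomerase itself, was at 353, 384 and 353 TPM in NCIH838 KDSR KO and 277, 292 and 298 TPM in NCIH838 CTRL (1.26-fold, adjusted p = 6.54e-05). In DLD1 it was at 510, 507 and 508 TPM in KDSR KO and 426, 465 and 491 TPM in CTRL, without overlap and just outside the threshold (adjusted p = 0.0504). The HUH7 values were 849, 850 and 856 TPM in KDSR KO and 882, 889 and 874 TPM in CTRL. PDIA3, the isomerase that works with CALR and CANX, was at 585, 504 and 532 TPM in NCIH838 KDSR KO and 421, 422 and 438 TPM in NCIH838 CTRL (1.27-fold, adjusted p = 0.000928). It was at 774, 781 and 815 TPM in DLD1 KDSR KO and 704, 723 and 670 TPM in DLD1 CTRL (adjusted p = 0.0818), and at 769, 796 and 811 TPM in HUH7 KDSR KO and 695, 863 and 794 TPM in HUH7 CTRL. PDIA6, a further isomerase, was called in no line, with log2 changes of 0.10, 0.07 and 0.10 in NCIH838, DLD1 and HUH7. Exons of other genes cover 18.9% of the exon bases of PDIA3 and 25.2% of those of PDIA6, and the sources used here do not say whether counting used strand.

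The 2 oxidases that re-oxidise the isomerases moved in opposite directions in NCIH838. ERO1B was at 5.43, 4.64 and 5.32 TPM in NCIH838 KDSR KO and 1.65, 2.54 and 1.96 TPM in NCIH838 CTRL, a 2.50-fold rise of TPM (log2 change of TPM + 1 of 1.02, SE 0.126, adjusted p = 1.55e-05) that rests on 137 to 157 reads per library in KDSR KO and 49 to 74 in CTRL. It was at 22.3, 19.5 and 19.6 TPM in DLD1 KDSR KO and 18.7, 17.8 and 13.9 TPM in DLD1 CTRL (adjusted p = 0.141), and at 12.6, 13.3 and 14.3 TPM in HUH7 KDSR KO and 10.3, 13.3 and 13.3 TPM in HUH7 CTRL. ERO1A was the 1 gene that fell. It was at 73.9, 52.5 and 67.0 TPM in NCIH838 KDSR KO and 83.6, 84.6 and 87.9 TPM in NCIH838 CTRL, a log2 change of -0.41 (SE 0.141, adjusted p = 0.0285). The lowest value was that of replicate 2, which stands apart from its group, and without it the change was -0.27 with an adjusted p of 0.143. The call was also lost without replicate 1, 2 or 3 of NCIH838 CTRL (adjusted p 0.0537, 0.0603 and 0.0766). ERO1A was at 84.5, 83.0 and 74.9 TPM in DLD1 KDSR KO and 79.2, 84.2 and 63.9 TPM in DLD1 CTRL, and at 54.4, 55.8 and 56.7 TPM in HUH7 KDSR KO and 37.5, 57.0 and 51.8 TPM in HUH7 CTRL, with overlap in both.

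Of the genes grouped as readers of glycans, which trim or bind glycans of misfolded glycoproteins, 2 of 4 rose in NCIH838 and 1 of 4 in DLD1. EDEM1, which promotes trimming of mannose, was at 56.1, 49.2 and 53.4 TPM in NCIH838 KDSR KO and 43.8, 42.6 and 43.4 TPM in NCIH838 CTRL (1.22-fold, adjusted p = 0.00911). DLD1 libraries had 37.1, 37.9 and 38.5 TPM in KDSR KO and 29.8, 31.1 and 29 TPM in CTRL (1.26-fold, adjusted p = 0.0108), and HUH7 libraries had 57.5, 59.1 and 56.4 TPM in KDSR KO and 45.4, 58.0 and 59.4 TPM in CTRL. OS9, a lectin that hands substrates to SEL1L, was at 74.8, 80.6 and 72.4 TPM in NCIH838 KDSR KO and 69.5, 68.7 and 66.4 TPM in NCIH838 CTRL (1.11-fold, adjusted p = 0.0152). Its call was lost without NCIH838 KDSR KO replicate 2 (adjusted p = 0.0756) or CTRL replicate 3 (adjusted p = 0.0626), and with each line fitted alone (limma adjusted p = 0.0914). Like SYVN1, OS9 shares over 10% of its exon bases with other genes. OS9 was at 93.8, 99.5 and 103 TPM in DLD1 KDSR KO and 91.3, 93.5 and 97.2 TPM in DLD1 CTRL, and at 119, 116 and 119 TPM in HUH7 KDSR KO and 117, 113 and 116 TPM in HUH7 CTRL. EDEM2 and EDEM3, relatives of EDEM1, were called in no line, with log2 changes of 0.14 and 0.12 in NCIH838, -0.08 and -0.04 in DLD1, and 0.02 and 0.16 in HUH7.

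The membrane machinery rose in 6 of its 7 tested genes in NCIH838 and 5 of 7 in DLD1. In DLD1 all 7 had every KDSR KO library above CTRL (12.1% of all genes tested). For DERL2 the gap was narrow, with a lowest KDSR KO value of 22.7 TPM and a highest CTRL value of 22.4 TPM. HERPUD1, a scaffold of the SYVN1 complex (chr16:56932048-56944863, plus strand), changed most in DLD1 of the 35 genes. It was at 141, 129 and 132 TPM in DLD1 KDSR KO and 58.3, 60.1 and 55.1 TPM in DLD1 CTRL, a 2.32-fold rise (log2 change 1.2, SE 0.0461, adjusted p = 1.61e-10). In NCIH838 it was at 105, 102 and 101 TPM in KDSR KO and 58.5, 62.5 and 59.6 TPM in CTRL (1.71-fold, adjusted p = 8.89e-09). In HUH7 it was at 56.6, 55.7 and 58.5 TPM in KDSR KO and 52.9, 56.2 and 54.2 TPM in CTRL. All 9 CTRL libraries were between 52.9 and 62.5 TPM, a narrow range, in which only NCIH838 CTRL was called higher than HUH7 CTRL (adjusted p = 0.0115).

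SYVN1, the ubiquitin ligase, was at 139, 160 and 144 TPM in NCIH838 KDSR KO and 94.6, 101 and 97.5 TPM in NCIH838 CTRL (1.51-fold, adjusted p = 6.89e-06). In DLD1 the level was 91.3, 85.6 and 89.3 TPM in KDSR KO and 62.6, 64.5 and 68.9 TPM in CTRL (1.36-fold, adjusted p = 0.000653). HUH7 libraries had 58.2, 59.3 and 58.4 TPM in KDSR KO and 72.6, 63.3 and 59.6 TPM in CTRL, below CTRL without overlap and not called. SEL1L, its partner, was at 58.0, 49.8 and 57.1 TPM in NCIH838 KDSR KO and 44.2, 48.0 and 46.1 TPM in NCIH838 CTRL (1.19-fold, adjusted p = 0.0237, or 0.0547 to 0.0839 without replicate 1 or 3 of either group). The DLD1 values were 40.6, 40.9 and 39.9 TPM in KDSR KO and 29.7, 28.5 and 28.1 TPM in CTRL (1.41-fold, adjusted p = 0.00131). In HUH7 the level was 80.4, 82.7 and 78.7 TPM in KDSR KO and 63.1, 81.1 and 81.0 TPM in CTRL, where again replicate 1 of CTRL is the low value. For SEL1L the larger rise was thus in DLD1, but the difference between the lines was not called (adjusted p = 0.177).

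The selenoproteins SELENOS and SELENOK sit in the membrane and bind derlins, and SELENOS also binds VCP. SELENOS was at 87.1, 83.6 and 85.7 TPM in NCIH838 KDSR KO and 49.9, 51.9 and 53.6 TPM in NCIH838 CTRL (1.65-fold, adjusted p = 8.43e-09). DLD1 cells had 36, 38.6 and 36.9 TPM in KDSR KO and 28.1, 28.5 and 28.2 TPM in CTRL (1.31-fold, adjusted p = 3.91e-05). The HUH7 values were 34.9, 35.4 and 36.7 TPM in KDSR KO and 31.5, 33 and 30.7 TPM in CTRL. This was the 1 gene of the 35 with HUH7 KDSR KO above CTRL without overlap and the smallest HUH7 p of the 35, yet it was not called (log2 change 0.16, unadjusted p = 0.00171, limma adjusted p = 0.312). SELENOK was at 78.6, 62.6 and 59.0 TPM in NCIH838 KDSR KO and 39.4, 42 and 43.2 TPM in NCIH838 CTRL (1.61-fold, adjusted p = 0.000777). In DLD1 it was at 83.1, 78.6 and 81.5 TPM in KDSR KO and 45.4, 44.9 and 37.9 TPM in CTRL (1.90-fold, adjusted p = 0.000341), and HUH7 libraries had 54.6, 51.9 and 50.3 TPM in KDSR KO and 35.4, 53.9 and 49.6 TPM in CTRL. DERL1, a derlin, was at 66.0, 56.7 and 62.0 TPM in NCIH838 KDSR KO and 49.6, 49.8 and 51.0 TPM in NCIH838 CTRL (1.23-fold, adjusted p = 0.00209). It was at 36.9, 37.3 and 36.9 TPM in DLD1 KDSR KO and 32.8, 33.6 and 30.9 TPM in DLD1 CTRL (adjusted p = 0.0573), and at 44.5, 47.1 and 47.3 TPM in HUH7 KDSR KO and 39.1, 47.2 and 43.7 TPM in HUH7 CTRL. DERL2 was called in no line, with log2 changes of 0.04, 0.16 and 0.10 in NCIH838, DLD1 and HUH7.

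All 4 genes of the extraction complex rose in NCIH838 and in DLD1. VCP, the ATPase, was at 473, 462 and 437 TPM in NCIH838 KDSR KO and 324, 317 and 329 TPM in NCIH838 CTRL (1.41-fold, adjusted p = 5.15e-07). DLD1 libraries had 540, 545 and 558 TPM in KDSR KO and 446, 464 and 482 TPM in CTRL (1.18-fold, adjusted p = 0.00222), and HUH7 libraries had 495, 488 and 474 TPM in KDSR KO and 462, 505 and 510 TPM in CTRL. UFD1 and NPLOC4 encode the pair of cofactors that brings VCP to ubiquitinated proteins. UFD1 was at 57.4, 61.8 and 55.7 TPM in NCIH838 KDSR KO and 34.3, 33.8 and 36.9 TPM in NCIH838 CTRL (1.67-fold, adjusted p = 7.38e-08), and in DLD1 at 52.8, 54.0 and 54.7 TPM in KDSR KO and 43, 40.9 and 44.8 TPM in CTRL (1.26-fold, adjusted p = 0.00108). In HUH7 it was at 169, 171 and 184 TPM in KDSR KO and 196, 190 and 182 TPM in CTRL, several-fold above the other lines in both groups. NPLOC4 was at 104, 116 and 104 TPM in NCIH838 KDSR KO and 67.7, 71.7 and 68.8 TPM in NCIH838 CTRL (1.56-fold, adjusted p = 4.38e-07). In DLD1 the level was 90.6, 86.2 and 87.3 TPM in KDSR KO and 63.2, 64.4 and 72.0 TPM in CTRL (1.32-fold, adjusted p = 0.000239), and HUH7 libraries had 101, 99.2 and 97.2 TPM in KDSR KO and 103, 106 and 108 TPM in CTRL. FAF2, a membrane adaptor that recruits VCP, was at 79.6, 74.2 and 74.3 TPM in NCIH838 KDSR KO and 58.8, 60.5 and 62.8 TPM in NCIH838 CTRL (log2 change 0.32, adjusted p = 0.000171). The DLD1 values were 103, 101 and 104 TPM in KDSR KO and 80.8, 90.2 and 85.8 TPM in CTRL (1.2-fold, adjusted p = 0.00355), and HUH7 libraries had 98.0, 97.4 and 95.3 TPM in KDSR KO and 87.6, 94.2 and 99.7 TPM in CTRL.

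Summed over all 36 genes, levels were 9557, 9249 and 9127 TPM in NCIH838 KDSR KO and 6598, 6797 and 6849 TPM in NCIH838 CTRL, a ratio of 1.38. In DLD1 they were 11322, 11233 and 11332 TPM in KDSR KO and 8452, 8934 and 8726 TPM in CTRL, a ratio of 1.30. In HUH7 they were 11687, 12163 and 11955 TPM in KDSR KO and 11438, 12361 and 12095 TPM in CTRL, a ratio of 0.997. The sums are carried by a few abundant chaperones and are given without a test. By role, the ratio of KDSR KO to CTRL was highest for the HSP70 and HSP90 class, at 1.76 in NCIH838 and 1.64 in DLD1, and for the membrane machinery, at 1.46 and 1.60. It was lowest for the readers of glycans, at 1.13 and 1.04. In HUH7 the ratios of the 7 roles lay between 0.972 and 1.05. Over all 36 genes, the NCIH838 and DLD1 sums came nearer in KDSR KO to that of HUH7, which had the highest CTRL sum. Not every role did so. The membrane machinery had means of 554 TPM in NCIH838 and 371 TPM in HUH7 in KDSR KO, against 381 and 355 TPM in CTRL. The HSP70 and HSP90 class had means of 4176 TPM in DLD1 and 3071 TPM in HUH7 in KDSR KO, against 2539 and 2968 TPM in CTRL.

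**Figure D3:**
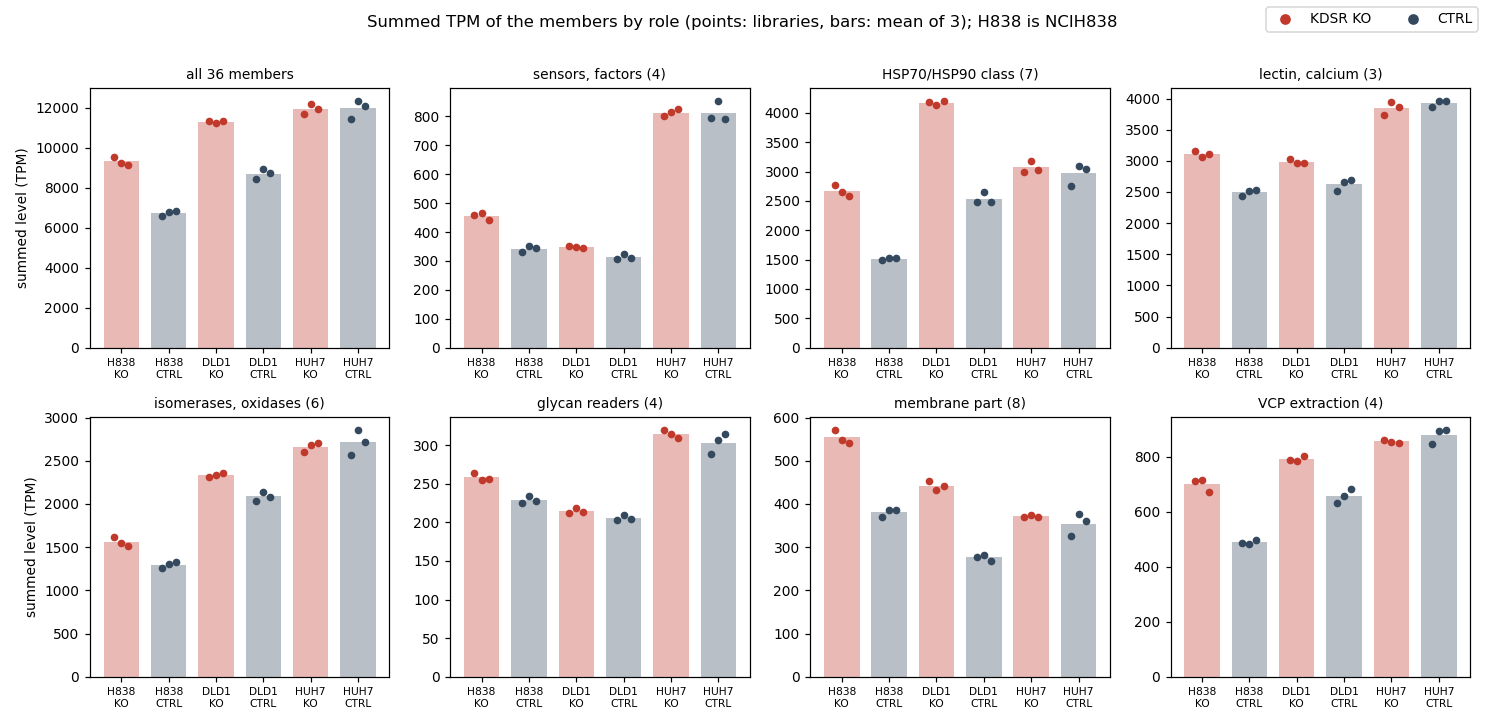
Summed TPM of all 36 genes and of each of the 7 roles in every library (points), with the mean of 3 libraries as a bar that starts at 0; H838 stands for NCIH838. In NCIH838 and DLD1 every KDSR KO library lies above every CTRL library in all 8 panels, and in HUH7 the groups overlap in all 8.

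The difference between lines was tested directly. By limma's F test that the change is equal in the 3 lines, 23 of the 35 genes had an adjusted p under 0.05, against 30.9% of 12558 genes. Between NCIH838 and HUH7 the change differed for 24 genes (33.7% of all genes), of which 23 were more positive in NCIH838 (12.2% of all genes) and 1, ERO1A, more negative (21.6%). Between DLD1 and HUH7 it differed for 10 genes (2.79% of all genes), all more positive in DLD1 (1.74%): HSPA5, HSP90B1, HYOU1, PDIA4, HERPUD1, SYVN1, SELENOK, VCP, UFD1 and NPLOC4. For HSPA5 the log2 change was 1.30 in NCIH838, 1.15 in DLD1 and 0.12 in HUH7, so that the difference from HUH7 was 1.18 for NCIH838 (adjusted p = 1.35e-07) and 1.03 for DLD1 (adjusted p = 1.5e-06). Between DLD1 and HUH7, the calls of SELENOK (adjusted p = 0.0497) and VCP (adjusted p = 0.0388) were kept under only 7 and 13 of 27 other settings, and were lost without most single libraries of those lines, at an adjusted p of up to 0.107 for SELENOK and 0.0928 for VCP. That of UFD1 was kept under 26 of 27, and those of the other 7 under all 27. The call of ERO1A between NCIH838 and HUH7 (adjusted p = 0.0269) was lost without any 1 of 5 libraries, among them HUH7 CTRL replicate 1 (adjusted p = 0.0584) and NCIH838 KDSR KO replicate 2 (adjusted p = 0.0695). HUH7 CTRL replicate 1 enters both comparisons with HUH7. Without it the counts were 27 between NCIH838 and HUH7 and 13 between DLD1 and HUH7, and the median change of the 35 genes in HUH7 was -0.02 in place of 0.03. The 2 comparisons with HUH7 share its libraries.

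Between NCIH838 and DLD1 the change differed for 11 genes (18% of all genes). It was more positive in NCIH838 for 10 (9.42% of all genes), namely CALR, ERN1, XBP1, CREB3L2, SELENOS, SDF2L1, CRELD2, ERO1B, VCP and UFD1. ERN1 changed by 1.11 in NCIH838 and 0.46 in DLD1, on the log2 scale (difference 0.66, SE 0.114, adjusted p = 0.00132), and ERO1B by 1.02 in NCIH838 and 0.28 in DLD1 (difference 0.73, adjusted p = 0.0112). UFD1 changed by 0.72 in NCIH838 and 0.32 in DLD1 (adjusted p = 0.00239). The 1 gene that went the other way (8.57% of all genes) was HERPUD1, which changed by 0.76 in NCIH838 and 1.2 in DLD1 (difference -0.43, SE 0.0652, adjusted p = 0.000397). The differences of ERN1, XBP1, CREB3L2, HERPUD1, SELENOS, CRELD2, VCP and UFD1 were kept in all 27 other settings and that of ERO1B in all 26 that gave a value, whereas that of CALR was lost in 7 and that of SDF2L1 in 3, without DLD1 CTRL replicate 3 (adjusted p = 0.0597 for CALR and 0.0592 for SDF2L1) among them. HSPA5 differed by 0.14 between NCIH838 and DLD1 (SE 0.0801, adjusted p = 0.24), which is not called and does not show that the changes are equal.

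**Figure D4:**
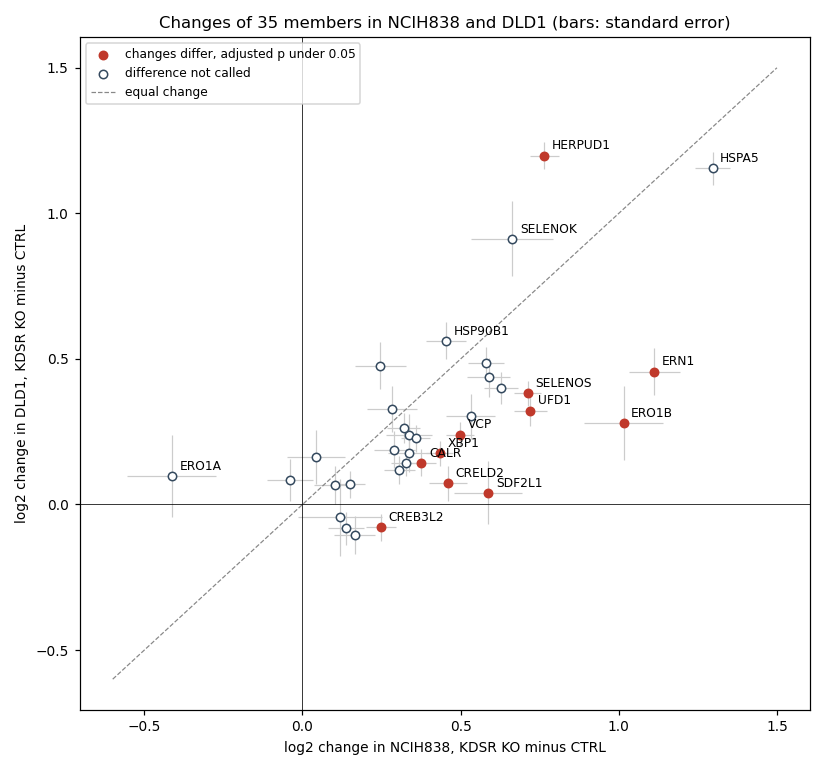
Log2 change of TPM + 1 in NCIH838 (x axis) against that in DLD1 (y axis), KDSR KO minus CTRL, for 35 genes with standard errors as bars; the dashed line marks equal change, and filled points are the 11 genes whose changes differed at an adjusted p under 0.05. HERPUD1 is the filled point above the line, at 0.76 in NCIH838 and 1.2 in DLD1, and ERN1, ERO1B, UFD1 and SELENOS lie below it.

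The lines also differed without the knockout, in CTRL libraries alone. Of the 35 genes, the CTRL level differed for 30 between NCIH838 and HUH7, 24 of them lower in NCIH838 (73% of 19869 genes differed), and for 28 between DLD1 and HUH7, 22 of them lower in DLD1 (70.6%). Between NCIH838 and DLD1 it differed for 29, of which 12 were higher in NCIH838 and 17 lower (73%). These shares, counted in either direction, stand near those of all genes. The split into higher and lower was not counted over all genes, so it is not read as a trait of these 35. Among the largest differences were those of CRELD2, at 7.65 ± 0.124 TPM in NCIH838, 43.5 ± 3.70 TPM in DLD1 and 46.7 ± 0.821 TPM in HUH7 CTRL (SD, n = 3 each), of SDF2L1, at 51.2 ± 4.6 TPM in NCIH838, 163 ± 14.3 TPM in DLD1 and 279 ± 12.9 TPM in HUH7 CTRL, and of ERO1B, at 2.05 ± 0.454 TPM in NCIH838, 16.8 ± 2.57 TPM in DLD1 and 12.3 ± 1.71 TPM in HUH7 CTRL. All 3 were lowest in NCIH838, the line in which they rose with the knockout. ATF6, HERPUD1, SYVN1, DERL1 and SELENOS rose there too, and their mean CTRL levels were highest in that line. UFD1 stood apart in HUH7 CTRL, at 189 TPM, against 35 TPM in NCIH838 CTRL and 42.9 TPM in DLD1 CTRL. SELENOS was by contrast highest in NCIH838, at 51.8 ± 1.85 TPM in NCIH838, 28.3 ± 0.197 TPM in DLD1 and 31.7 ± 1.19 TPM in HUH7 CTRL, and its rise was larger in NCIH838 than in DLD1 (adjusted p = 0.00187). For ERN1 and SELENOK no pair of CTRL groups was called as different. SYVN1 was higher in NCIH838 CTRL, at 97.8 ± 3.38 TPM, than in DLD1 CTRL, at 65.3 ± 3.25 TPM, or HUH7 CTRL, at 65.1 ± 6.68 TPM.

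**Figure D5:**
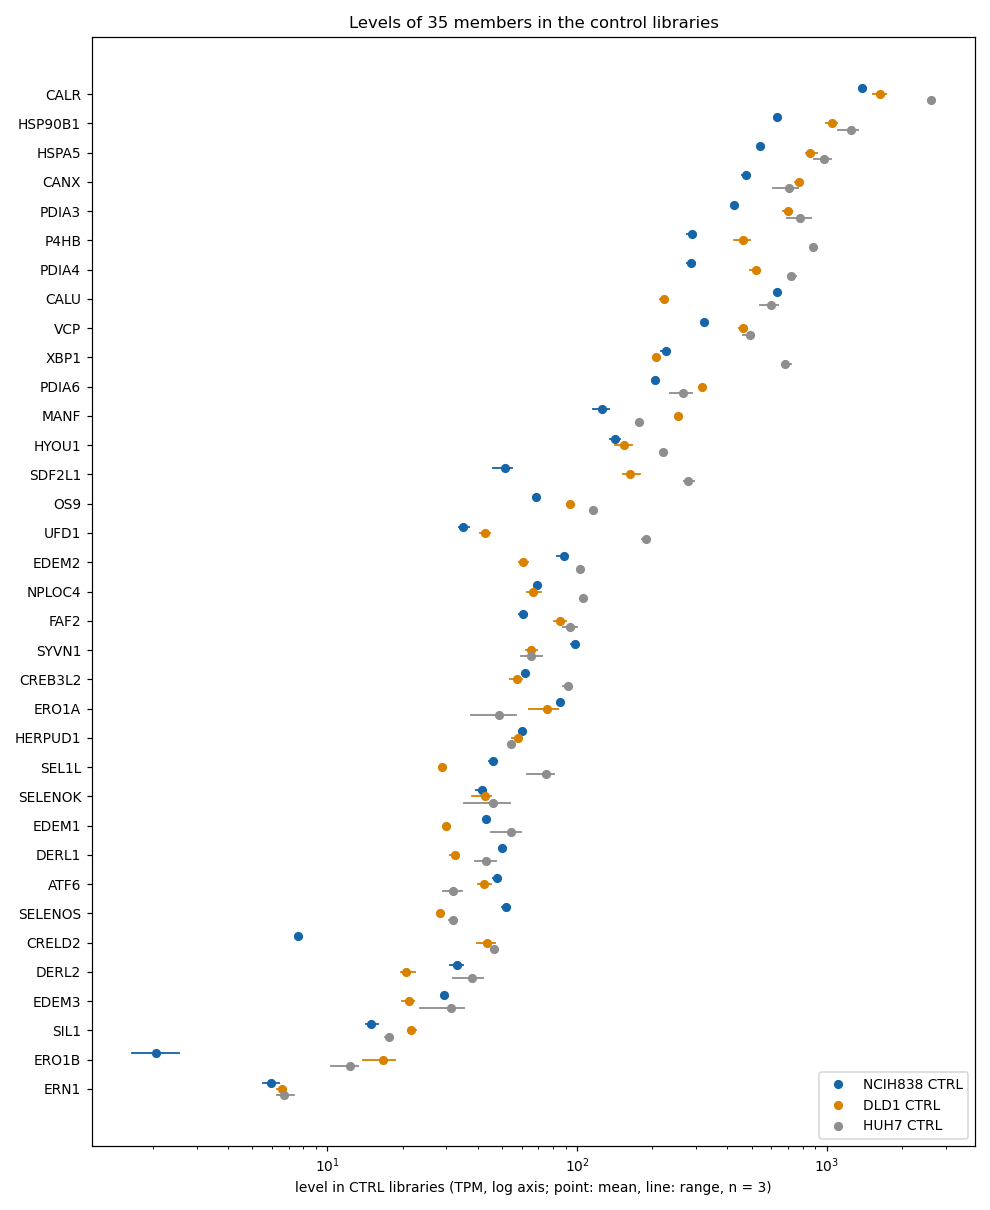
TPM of 35 genes in the CTRL libraries of NCIH838, DLD1 and HUH7, on a log axis, with the mean as a point and the range of 3 libraries as a line; genes are ordered by their mean over the lines. CALR is highest in every line, and CRELD2, SDF2L1 and ERO1B stand far lower in NCIH838 than in the other lines.

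Set beside the promoters, the 11 genes with either ER stress response element had a median log2 change of 0.53 in NCIH838, 0.28 in DLD1 and 0.06 in HUH7, and 10, 7 and 0 of them rose. The 21 genes whose window held neither had medians of 0.31 in NCIH838, 0.23 in DLD1 and 0.03 in HUH7, and 15, 11 and 0 rose. Over all genes tested, the medians were -0.09, -0.07 and 0.02, and 15.7%, 5.16% and 0% rose, in the same order of lines. Rises were thus seen with and without an ER stress response element in the window. VCP, counted among the 21, holds the unfolded protein response element and rose in both NCIH838 and DLD1. HSPA5, HERPUD1, HYOU1 and HSP90B1 hold an element and rose in both NCIH838 and DLD1, PDIA6 holds one and was called in no line, and ERN1, SELENOK and SEL1L rose in both lines with no match in their windows. CRELD2, SDF2L1 and ERO1B hold an element and were called in NCIH838 alone. These are counts of few genes, given without a test.

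Among other genes of folding, modification and degradation in the endoplasmic reticulum, calls fell on both sides. The list of these genes was also chosen with earlier results of these data known. Of 99 further genes in the table, such as translocon subunits, oligosaccharyltransferase subunits, other isomerases and other ligases, 27 of 97 tested rose (27.8%, against 15.7% of all genes) and 19 fell (19.6%, against 26.8%) in NCIH838. In DLD1, 12 of 96 rose (12.5%, against 5.16%) and 8 fell (8.33%, against 12.1%), and in HUH7 0 of 98 were called. Their median log2 change was 0.02 in NCIH838, 0.03 in DLD1 and 0.04 in HUH7. The 4 smallest p-values in each of NCIH838 and DLD1 included those of PPP1R15A and DDIT3, and in DLD1 that of ATF4. ATF4 and DDIT3 are transcription factors, and PPP1R15A directs a phosphatase to eIF2alpha. Whether PERK acted on these genes was not tested. PPP1R15A was at 221, 256 and 215 TPM in NCIH838 KDSR KO and 48.8, 41.6 and 42.7 TPM in NCIH838 CTRL (5.20-fold, adjusted p = 2.92e-11), and at 201, 208 and 206 TPM in DLD1 KDSR KO and 75.1, 81.5 and 87.1 TPM in DLD1 CTRL (2.52-fold, adjusted p = 3.17e-08). DDIT3 rose to 48.8, 45.9 and 46.4 TPM in NCIH838 KDSR KO, against 23.1, 24.7 and 22.3 TPM in NCIH838 CTRL (2.02-fold, adjusted p = 1.52e-08), and to 95.8, 86.3 and 90.3 TPM in DLD1 KDSR KO, against 25.7, 23.1 and 24.4 TPM in DLD1 CTRL (3.72-fold, adjusted p = 4.67e-11).

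DNAJB9, a co-chaperone of BiP that is a known target of spliced XBP1, was at 83.6, 56.8 and 74.0 TPM in NCIH838 KDSR KO and 26.3, 26.7 and 28.9 TPM in NCIH838 CTRL (2.62-fold, adjusted p = 1.45e-06). DLD1 cells had 38, 35 and 34.7 TPM in KDSR KO and 18.0, 19.1 and 15.7 TPM in CTRL (2.04-fold, adjusted p = 0.000184). ATF4 rose 1.23-fold in NCIH838 (adjusted p = 2.8e-05) and 1.24-fold in DLD1 (adjusted p = 0.000125). SEC61A1, a subunit of the translocon, rose 1.41-fold in NCIH838 (adjusted p = 2.13e-06) and 1.14-fold in DLD1 (limma adjusted p = 0.0156). In HUH7 the 4 smallest p-values of these genes were those of DDIT3, RCN1, KDELR1 and RNF5. DDIT3 was at 34.3, 38 and 33.9 TPM in HUH7 KDSR KO and 27.3, 29.7 and 30.3 TPM in HUH7 CTRL, above CTRL without overlap (log2 change 0.27, adjusted p = 0.245). RCN1, a calcium binding protein, was at 23.5 ± 0.231 TPM in HUH7 KDSR KO and 19.3 ± 2.44 TPM in HUH7 CTRL, KDELR1, a retrieval receptor, at 468 ± 9.34 and 537 ± 37.2 TPM, and RNF5, a ubiquitin ligase, at 232 ± 11 and 264 ± 9.94 TPM in HUH7 KDSR KO and CTRL (SD, n = 3 each), and none was called in HUH7. RNF5 fell in the other lines, to 206, 225 and 191 TPM in NCIH838 KDSR KO, against 248, 266 and 269 TPM in NCIH838 CTRL (0.794-fold, adjusted p = 0.000375), and to 89.6, 86.8 and 89.7 TPM in DLD1 KDSR KO, against 101, 99.3 and 109 TPM in DLD1 CTRL (0.859-fold, adjusted p = 0.0212). RCN1 and KDELR1 were called in no line.

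The limma fit made 0 calls among all 16104 genes of HUH7, and limma voom on recovered reads made 0 too, while 1806 genes had an unadjusted p under 0.05 (11.2%). Of the 35 genes, 6 did: SELENOS was higher (5.09% of all genes were), and HYOU1, PDIA4, CREB3L2, SYVN1 and UFD1 were lower in KDSR KO (as were the rest of the 11.2% of all genes). HUH7 CTRL replicate 1 widened the spread of several genes, at 35.4 TPM of SELENOK against 53.9 and 49.6 TPM in the other 2 CTRL libraries, and at 23.5 TPM of EDEM3 against 34.9 and 35.4 TPM. Without that library still 0 of the 35 genes were called in HUH7, and 21 rose in DLD1 and 28 in NCIH838. Without NCIH838 KDSR KO replicate 2, 27 rose and 0 fell in NCIH838. With the mitochondrially encoded genes left out and the rest rescaled, 29 rose in NCIH838 and 23 in DLD1, and 0 were called in HUH7.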

How the data were processed

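RNA-seq was done in 18 libraries, 3 for each of 6 groups, which were taken from the sample labels. The authors deposited 1 table of TPM, relative transcript abundance corrected for gene length, for 27166 genes; per the submitters' processing notes, reads were counted with featureCounts 2.0.0 on hg38, and the aligner is not named in the labels. Identifiers, names and starts of all 27166 genes equalled GENCODE 29. TPM times the deposited gene length gave whole reads for 100% of values within 0.01, so depth per library could be recovered (17039634 to 20385767 reads). The table lists genes with at least 10 reads in all libraries together.

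From the deposited TPM, limma 3.58.1 (R 4.3.3) was fitted on log2(TPM + 1) with 1 mean for each of the 6 groups, eBayes with trend and robust options and 12 residual degrees of freedom. Adjusted p-values are limma's with Benjamini-Hochberg adjustment over all genes whose mean in the line reached 1 TPM, and the threshold was 0.05. Folds are ratios of mean TPM; log2 changes are on the log2(TPM + 1) scale, which understates changes of low genes. Differences between lines were tested over 12558 genes in the same fit, and CTRL levels over 19869. Python 3.11.15, pandas 2.3.3, numpy 2.4.6, scipy 1.17.1 and matplotlib 3.10.9 were used for the rest. The code was tested on simulated data. The labels call the libraries biological triplicates without naming cultures, so p-values measure the spread between these libraries.

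The genes, their roles and the list of other pathway genes were chosen with earlier results of these data known. Values in every library are given for genes called in any line, the 4 sensors and factors, HSPA5, HSP90B1, HERPUD1, SDF2L1, DERL3 and ERO1B; of the other pathway genes, the 4 with the smallest p in each line are named. Alternatives were another pseudocount (0.1), filters, scalings, variance models, limma voom on recovered reads, a replicate block, each line alone, no mitochondrial genes, and each library left out. Same-numbered libraries were not treated as pairs except under the replicate block.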

Additional observations from a re-analysis of the deposited data

Results flagged for a closer look

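For 23 of the 35 genes tested, the change with the knockout differed between the 3 lines by limma's F test, which is what marks them here. The smallest adjusted p was that of HERPUD1, at 6.39e-08, followed by HSPA5 at 1.53e-07. Among the chaperones and their helpers, adjusted p was 0.00209 for HSP90B1, 1.81e-05 for HYOU1, 0.0102 for SDF2L1, 0.00474 for MANF, 0.00234 for CRELD2, 0.000397 for CALR and 0.0309 for CANX. For sensors and factors it was 3.15e-05 for ERN1, 0.041 for ATF6, 0.000563 for XBP1 and 0.00165 for CREB3L2. The isomerases and oxidases gave 0.00028 for PDIA4, 0.00263 for P4HB and 0.00358 for ERO1B. Membrane proteins of degradation gave 0.000124 for SYVN1, 4.18e-05 for SELENOS and 0.0203 for SELENOK. All 4 genes of the extraction complex were among them, with 0.000105 for VCP, 6.27e-06 for UFD1, 2.69e-05 for NPLOC4 and 0.0234 for FAF2. NCIH838 was sampled on day 10 and the other lines on day 8, so line and day cannot be told apart for it.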

How the results depend on the processing

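Over 28 other settings, 18 of them leaving out 1 library each, no change or difference turned its direction past the threshold. Of the 35 genes, 27 to 31 were higher in NCIH838 and 17 to 23 in DLD1 under the 10 settings that kept all libraries, and 26 to 29 and 17 to 21 without 1 library. No call was lost in the 28 settings for 26 of 29 genes in NCIH838 (not ERO1A, OS9 and SEL1L). The same held for 16 of 19 in DLD1 (not ATF6, CALR and CANX). ERO1B, among those kept in NCIH838, was not tested there under the filter at 5 TPM. The 1 gene lower in NCIH838 became 0 to 1 without 1 library. Counts of genes whose change differed between NCIH838 and DLD1 were 11, 17 under quantile normalization and 9 to 16 without 1 library. In HUH7, where 0 genes of all were called, 7 were higher and 2 lower with no filter, 1 and 1 under median ratio scaling, 1 and 1 under quantile normalization, 5 and 2 with plain eBayes, and 0 to 4 in each direction without 1 library. In DLD1, all genes called higher and lower were 1245 and 985 under quantile normalization, and those lower ranged from 983 to 2190 without 1 library (983 without DLD1 CTRL replicate 3), against 1875. KDSR in HUH7 (-0.55) passed the threshold under median ratio scaling (-0.57, adjusted p = 0.0364) and quantile normalization (-0.59, adjusted p = 0.0437). KDSR in NCIH838 (-0.05) was 0.00014 under median ratio scaling and 0.038 under quantile normalization, and -0.13 to 0.0086 without 1 library, never past the threshold. The cause was not tested. Same-numbered libraries of a line correlated at -0.05 to 0.11 in their deviations from group means, and unlike numbers at -0.08 to 0.06. These correlations cannot exclude a shared culture or batch. With a replicate block, 29 genes were higher in NCIH838, 17 in DLD1 and 0 in HUH7, where 1 of all genes was called higher. DLD1 calls of CALR (limma adjusted p = 0.0895) and ATF6 (0.0637) were then lost. Genes whose change differed between DLD1 and HUH7 numbered 7 in place of 10, without SELENOK (limma adjusted p = 0.12), VCP (0.109) and UFD1 (0.0543). Each line alone gave no test between lines, and a planned edgeR fit was not run. Depth limits DERL3, with 1 to 18 reads per library.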
